A study of Mus musculus with 8 samples.

Results

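The 10 genes described here belong to the BCL2 family and its mitophagy branch: Bcl2, Bcl2l1, Bcl2l2, Mcl1, Bak1, Bad, Bid, Bcl2l11, Bnip3 and Bnip3l. They were taken by gene name from the 30445 genes of the deposited table, and all 10 were found and passed the filter on low counts. The libraries are bulk poly(A) RNA of hearts of C57 mice 8 weeks after transverse aortic constriction (TAC), a surgical narrowing that puts a pressure load on the left ventricle. There were 4 wildtype libraries and 4 libraries whose labels give Mertk knockdown as the genotype; every heart was operated, and the labels give neither the age or sex of the mice, nor how or in which cells Mertk was lowered, nor whether each library came from its own mouse. The tests thus weigh differences against the scatter among these libraries, which may in part be technical.

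BCL2 family proteins meet at the mitochondrial outer membrane and set whether it is opened to release cytochrome c. Pro-survival members (BCL2, BCL-xL, BCL-w and MCL1) hold back the pore-forming effectors BAK and BAX, and BH3-only proteins (BAD, BID and BIM) relieve that restraint or activate the effectors. BNIP3 and its relative NIX (gene Bnip3l) sit in the same membrane, carry a BH3-like stretch and recruit LC3-family proteins, so that the mitochondrion is taken up by autophagy. In cardiomyocytes, which are packed with mitochondria and rarely divide, both functions have been studied in pressure overload and ischaemia.

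Mertk, the gene named in the labels, was measured at 11.02, 10.39, 10.5 and 12.29 CPM (counts scaled to a common library size by the TMM method) in wildtype replicates 1 to 4. It was at 12.79, 12.31, 10.58 and 11.78 CPM in the libraries labelled Mertk knockdown. The groups overlapped, and the log2 fold change was 0.10 (SE 0.11, edgeR adjusted p = 0.7663), so the whole-gene count did not separate the libraries as their labels do; higher and lower follow the labels throughout. The libraries held 59287621 to 71571173 counts. Hepatocyte marker transcripts summed to 272.7 to 340 CPM in the labelled knockdown libraries. Wildtype replicate 1 had a like amount (338.3 CPM), while the rest of the wildtype group had 47.01 to 51.14 CPM, and atrial markers ranged from 246.2 to 2391 CPM over the 8 libraries.

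Of the 10 genes, 1 passed the test: Bcl2l1, which encodes the pro-survival protein BCL-xL, fell 2.48-fold in the labelled knockdown libraries (95% interval 1.76 to 3.48, n = 4 each). Bnip3 was also lower in all 4 labelled libraries than in any wildtype library, but did not pass. The other 8 genes lay between −0.30 and 0.35 on the log2 scale, and none passed. Of all 17787 genes tested, 0.647% were called by edgeR (Benjamini-Hochberg adjusted p under 0.05) and 0.371% were called lower. In 3 of the 10 genes (Bcl2l1, Bnip3 and Bnip3l) the CPM of the groups did not overlap, each time lower in the labelled libraries, where 8.07% of all tested genes did not overlap, 3.9% did so downward and 4.18% upward. At an unadjusted p under 0.05 there were 2 of 10 genes, against 12.4% of all. DESeq2 called 2 of 10 (Bcl2l1 and Bnip3), against 3.73% of the 16206 genes to which it gave an adjusted p. The median log2 fold change was −0.12 over the 10 genes and −0.00071 over all genes tested.

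**Figure D1:**
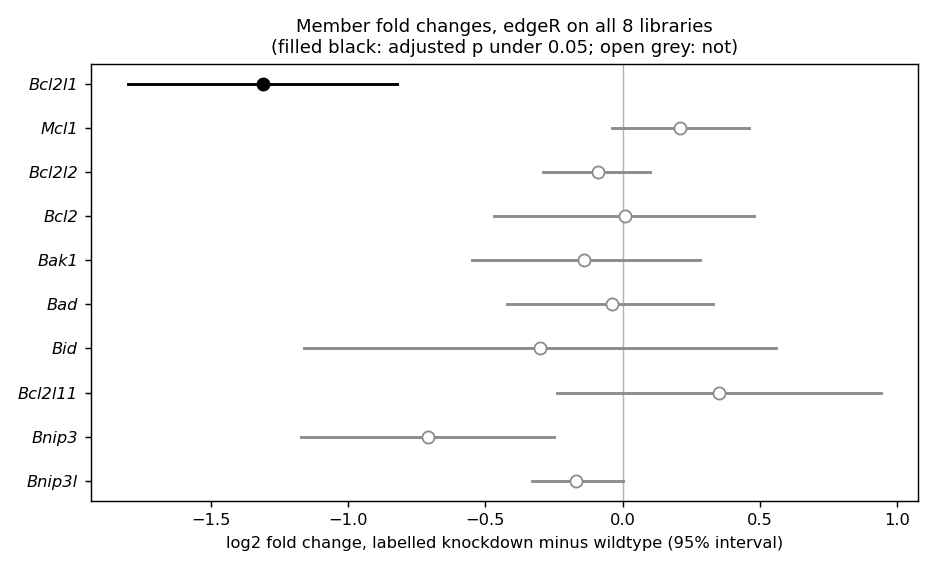
Log2 fold change (x axis, labelled knockdown minus wildtype) of the 10 genes with its 95% interval from edgeR on all 8 libraries; filled black marks an adjusted p under 0.05. Bcl2l1 at −1.31 is the 1 filled point, and the interval of Bnip3 (−1.17 to −0.25) also lies below 0.

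The windows before the start sites of the 2 genes with the largest decreases are shown because Bnip3 is a textbook target of the hypoxia-inducible factor HIF-1 and its window holds the HIF-1 core letters, while that of Bcl2l1 serves as comparison. Each is 250 bases upstream of the RefSeq start (GRCm38.p6, minus strand, printed 5′ to 3′ in the direction of the gene), at chr7:138909507-138909756 for Bnip3 and chr2:152831729-152831978 for Bcl2l1. Capitals mark ACGTG or GCGTG on either strand.
Bnip3: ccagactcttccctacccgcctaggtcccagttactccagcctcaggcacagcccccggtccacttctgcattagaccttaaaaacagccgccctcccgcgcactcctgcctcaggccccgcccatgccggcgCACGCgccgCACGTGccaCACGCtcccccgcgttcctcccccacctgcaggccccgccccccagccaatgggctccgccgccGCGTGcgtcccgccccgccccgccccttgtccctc
Bcl2l1: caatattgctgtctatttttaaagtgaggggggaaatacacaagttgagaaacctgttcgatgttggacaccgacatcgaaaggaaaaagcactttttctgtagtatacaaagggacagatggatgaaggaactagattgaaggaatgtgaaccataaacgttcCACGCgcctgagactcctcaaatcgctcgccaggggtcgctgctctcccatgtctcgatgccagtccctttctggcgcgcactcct
The Bnip3 window holds ACGTG on both strands, as the palindrome CACGTG 108 bases before the start, and GCGTG 3 times, 117, 99 and 35 bases before it. The Bcl2l1 window, which ends at the start of the gene as listed in the table, holds GCGTG once, 86 bases before the start, and no ACGTG. RefSeq gives Bcl2l1 other starts inside the gene, 1011 and 3239 bases downstream, and neither of their windows holds any of the motifs searched. Of 32851 RefSeq windows of the same length, 16.6% hold ACGTG, 28.2% GCGTG and 6.02% CACGTG on either strand. Of the 13 windows of 9 of the 10 genes (several have more than 1 start), 1 holds ACGTG and 5 hold GCGTG. The letters TTCNNNGAA, a STAT site to which Bcl2l1 regulation is often tied, are in 0 of the 13 windows and in 7.02% of all, and GTAAACA, a FoxO site, is in 1 (Bcl2l11) and in 3.17% of all. A match describes the letters only; no binding was measured.

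Among the pro-survival genes, Bcl2l1 (chromosome 2, 152780668 to 152831728, minus strand, mm10, ENSMUSG00000007659) separated the groups most clearly. Its level was 60.71, 59.67, 58.75 and 56.65 CPM in wildtype replicates 1 to 4 and 24.72, 35.97, 17.97 and 16.52 CPM in labelled knockdown replicates 1 to 4. The wildtype libraries lay close together, the labelled ones spread over a wider range, and the highest labelled library stayed well under the lowest wildtype one. The log2 fold change was −1.31 (SE 0.22, adjusted p by edgeR 0.03754). Permuting the group labels exactly, on log2 CPM and two-sided, gave p = 0.02857, the smallest that 4 against 4 libraries allow. In deposited FPKM (fragments scaled to gene length and sequencing depth) the means were 11.58 ± 0.575 and 4.717 ± 1.71 (SD, n = 4 each). The table gives 1 value per gene, so the long BCL-xL and short BCL-xS forms are not told apart.

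The size of the Bcl2l1 decrease moved little, while its call was lost in several settings. The log2 fold change stayed between −1.61 and −1.16 in 21 alternative settings, and the adjusted p was under 0.05 in 11 of them. Leaving out wildtype replicate 2, 3 or 4, or labelled knockdown replicate 1, 3 or 4, ended the call (edgeR adjusted p of 0.06937 to 0.1061), whereas without wildtype replicate 1 it was 0.04526 and without labelled knockdown replicate 2 it was 0.003625. Without a filter on low counts it was 0.05467. In 5 libraries hepatocyte markers summed to over 100 CPM, and 1 of them is wildtype and is assumed to vary like the labelled ones. Among these libraries the log2 fold change of Bcl2l1 was −1.34. With the hepatocyte score as a covariate it was −1.35 (edgeR adjusted p = 0.3281). That score was high in every labelled library and, in wildtype, in replicate 1 only. The covariate thus nearly follows the groups, and a call lost with it says little.

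**Figure D2:**
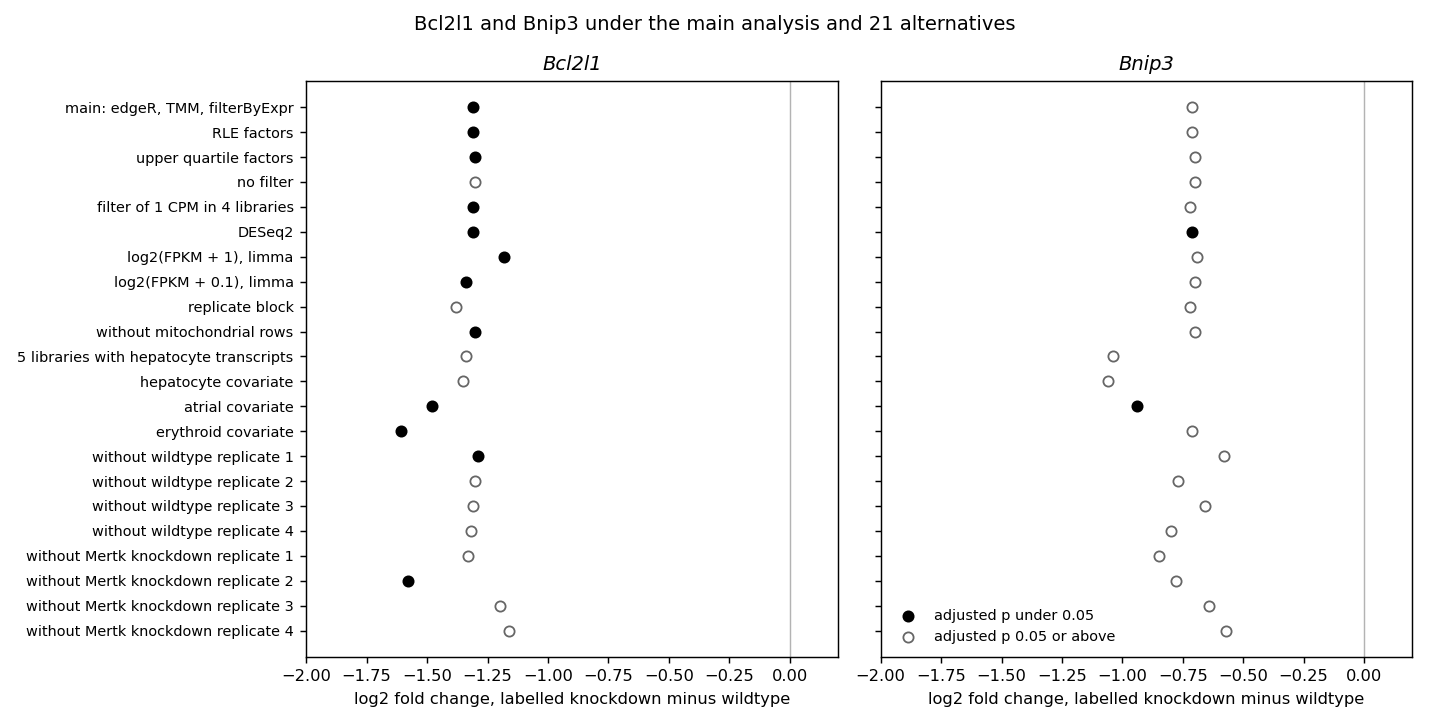
Log2 fold change (x axis, labelled knockdown minus wildtype) of Bcl2l1 and Bnip3 under the main analysis and 21 alternatives (rows); filled points have an adjusted p under 0.05. All values of both genes lie below 0, from −1.61 to −1.16 for Bcl2l1 and from −1.06 to −0.57 for Bnip3.

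Mcl1, the short-lived pro-survival protein that cardiomyocytes depend on, was the most abundant of the pro-survival transcripts and did not pass. It was at 132.3, 164.3, 126.9 and 163.4 CPM in wildtype and 168.9, 157.6, 171.4 and 181.4 CPM in the labelled libraries. Wildtype replicates 1 and 3 lay below all others, and the groups overlapped (log2 fold change 0.21, 95% interval −0.04 to 0.46, edgeR adjusted p = 0.4948).

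Bcl2l2, which encodes BCL-w, had 44.58 to 53.77 CPM in wildtype and 41.54 to 47.6 CPM in the labelled libraries, with overlapping groups (log2 fold change −0.09, 95% interval −0.29 to 0.10). A read-through gene, Gm20521, covers 4794 bases of Bcl2l2 on the same strand in GENCODE M21 and was not analysed here, so its reads may be counted under Bcl2l2. Bcl2, the founding member of the family, had 11.34, 19.98, 10.79 and 11.61 CPM in wildtype and 11.29, 11.61, 15.04 and 15.98 CPM in the labelled libraries. Wildtype replicate 2 was the highest and the groups overlapped (log2 fold change 0.01, 95% interval −0.47 to 0.48).

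Within the 4 pro-survival genes, the share held by Bcl2l1 was smaller in the labelled libraries while the sum was similar. Summed FPKM was 61.5 ± 8.59 (SD, n = 4) in wildtype, against 60.8 ± 2.56 (SD, n = 4) in the labelled libraries. Bcl2l1 made up 20.9%, 17.3%, 20.7% and 17.2% of that sum in wildtype replicates 1 to 4 and 8.23%, 11.9%, 5.92% and 5.24% in the labelled libraries. Mcl1 made up 62.9% ± 2.88 and 74.8% ± 3.26, and there were 2.9 to 3.87 Mcl1 FPKM per Bcl2l1 FPKM in wildtype against 5.89 to 14.8 in the labelled group. These shares describe the same libraries as the test above and were not tested.

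**Figure D3:**
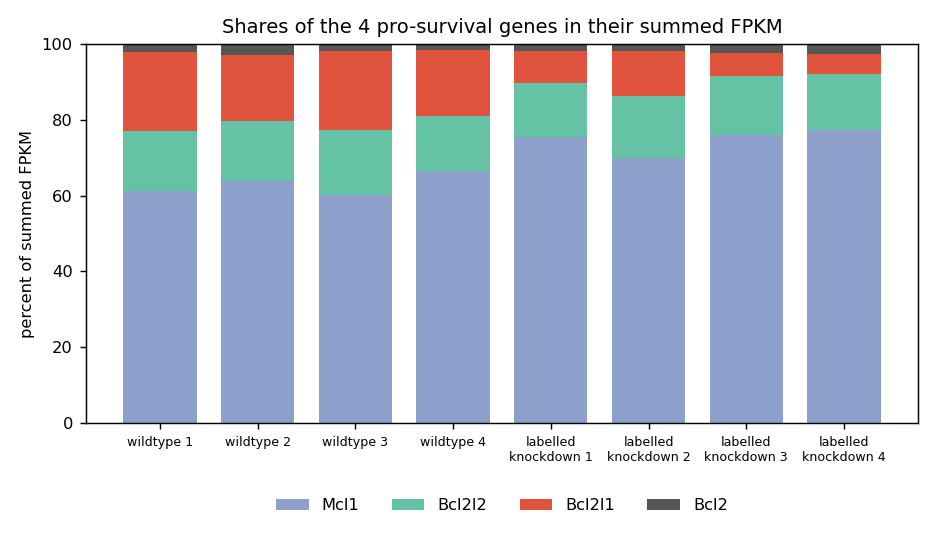
Percent of the summed FPKM of Mcl1, Bcl2l2, Bcl2l1 and Bcl2 held by each gene (y axis) in the 8 libraries (bars). The Bcl2l1 segment is 17.2% to 20.9% in wildtype and 5.24% to 11.9% in the labelled knockdown libraries.

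The effector and the BH3-only genes did not pass. Bak1, whose protein forms the outer membrane pore, had 16.57, 27.13, 14.4 and 23.75 CPM in wildtype and 16.93 to 19.88 CPM in the labelled libraries. The labelled values fell inside the wildtype range (log2 fold change −0.14, 95% interval −0.55 to 0.28). Ggnbp1 lies on the opposite strand over all 9200 bases of Bak1, and since strand-aware counting is not stated, their reads may be shared. The entries named Ggnbp1 held 5424 and 4318 counts over all libraries, and Bak1 held 830 to 1798 counts in each library. Bad, whose protein is held by 14-3-3 proteins when phosphorylated, was similarly inside the wildtype range. It had 7.615 to 8.129 CPM in the labelled libraries against 6.107 to 10.48 CPM in wildtype (log2 fold change −0.04, 95% interval −0.42 to 0.33). Bad overlaps Gpr137, which held 7347 counts over all libraries, by 620 bases on the opposite strand, so their reads may also be shared.

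Bid, cleaved by caspase-8 to link death receptors to mitochondria, was the scarcest of the 10 genes, with 51 to 185 counts per library. It ranged from 1.183 to 2.52 CPM in wildtype and from 0.7991 to 2.715 CPM in the labelled libraries, and its interval was the widest of the 10 (log2 fold change −0.30, 95% interval −1.16 to 0.56). Bid overlaps Bcl2l13, which held 42429 counts over all libraries, by 913 bases on the opposite strand. Their reads may likewise be shared. Bcl2l11, encoding the BH3-only activator BIM, was at 12.93, 6.005, 11.17 and 8.025 CPM in wildtype and 10.4, 10.47, 10.15 and 17.65 CPM in the labelled libraries. Labelled knockdown replicate 4 stood above the rest and the groups overlapped (log2 fold change 0.35, 95% interval −0.24 to 0.94, edgeR adjusted p = 0.6515).

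**Figure D4:**
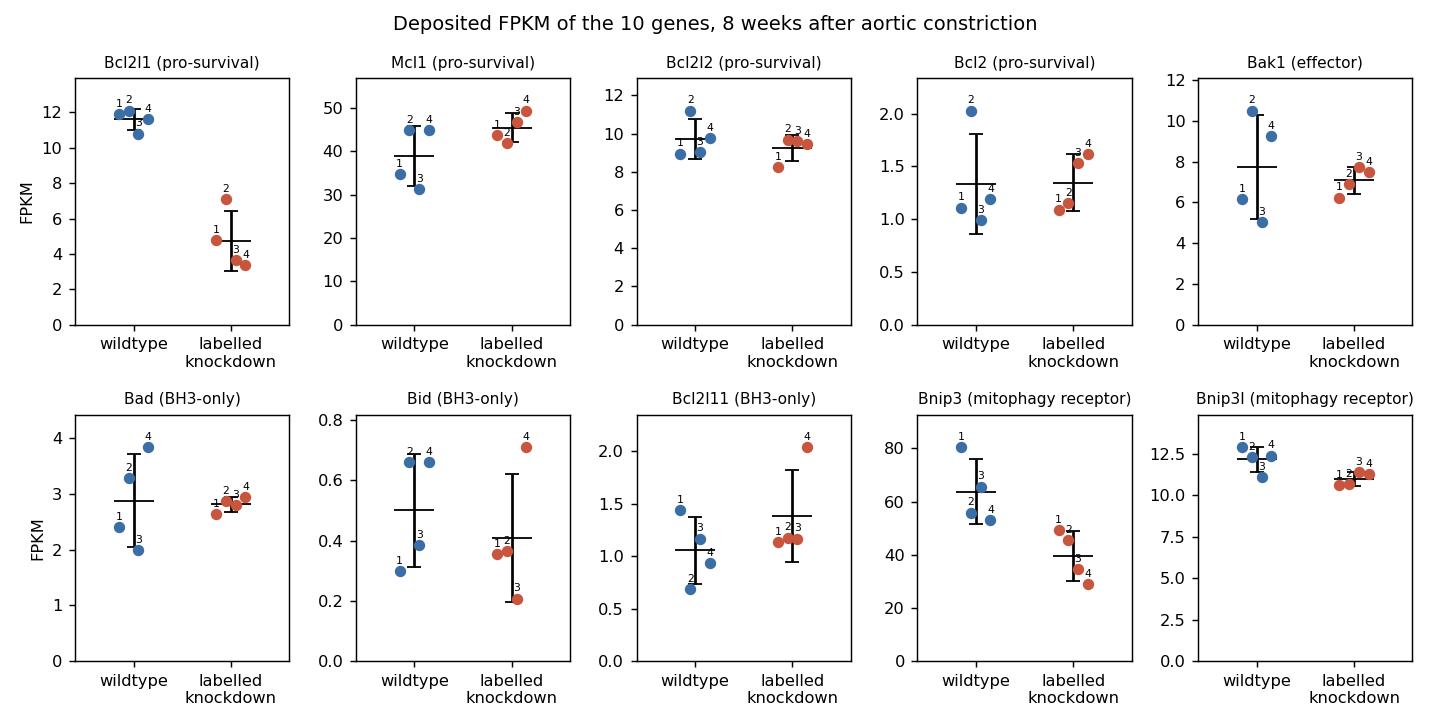
Deposited FPKM (y axes, from 0) of each of the 10 genes in the 4 wildtype (blue) and 4 labelled knockdown (red) libraries, numbered by replicate, with mean and SD as bars. Bcl2l1 and Bnip3 are the 2 panels in which the groups do not overlap.

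Of the mitophagy receptors, Bnip3 (chromosome 7, 138890836 to 138909519, minus strand) was at 203.3, 136, 176.3 and 128.1 CPM in wildtype and 125.7, 113.3, 83.89 and 70.56 CPM in the labelled libraries. The groups did not overlap, but the lowest wildtype and the highest labelled library were close. The level was 1.64-fold higher in wildtype, a log2 fold change of −0.71 (SE 0.21, 95% interval −1.17 to −0.25) that did not pass (adjusted p by edgeR 0.1918). Permuting the group labels exactly gave 0.02857, two-sided and again the smallest possible. DESeq2 gave an adjusted p of 0.02057 and the fit with atrial markers as a covariate 0.01457 (log2 fold change −0.94). These were the 2 of 21 alternative settings in which Bnip3 passed. With 1 library left out the edgeR adjusted p was 0.1767 to 0.3666, and with the erythroid covariate 0.4153. Within the 5 libraries with over 100 CPM of hepatocyte markers the log2 fold change was −1.04 (edgeR adjusted p = 0.3146), where the lone wildtype library is the one with the highest Bnip3. A processed pseudogene, Gm18258, lies within the gene on the opposite strand and held 210 counts over all libraries.

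Bnip3l, which encodes NIX, the receptor that clears mitochondria from maturing red cells, was at 55.78, 50.78, 50.68 and 50.99 CPM in wildtype and 46.07, 45.49, 47.01 and 47.04 CPM in the labelled libraries. The CPM of the groups did not overlap, while the deposited FPKM did (11.1 to 12.9 against 10.6 to 11.4). On the log2 scale the difference was −0.17 (SE 0.07), with a 95% interval of −0.33 to 0.00 and an edgeR adjusted p of 0.404. Bnip3 was 4.28 to 6.21 times as high as Bnip3l in FPKM in wildtype and 2.56 to 4.65 times in the labelled libraries, and the 2 receptors summed to 75.9 ± 12.6 and 50.5 ± 8.97 FPKM (SD, n = 4 each).

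Ordered by mean FPKM over the 8 libraries, the genes were Bnip3 (51.7), Mcl1 (42.2), Bnip3l (11.6), Bcl2l2 (9.49), Bcl2l1 (8.15), Bak1 (7.41), Bad (2.84), Bcl2 (1.34), Bcl2l11 (1.22) and Bid (0.455). The steps from Mcl1 to Bnip3l and from Bak1 to Bad were the 2 at which the ranges over the libraries did not overlap. Several neighbours changed places with the group. Bcl2l1 lay above Bcl2l2 in all 4 wildtype libraries (means 11.58 and 9.738 FPKM) and below it in all 4 labelled ones (4.717 and 9.242 FPKM). Bnip3 exceeded Mcl1 in 4 of 4 wildtype libraries and in 2 of 4 labelled ones, and Bcl2l1 exceeded Bak1 in 4 of 4 and in 1 of 4. Bcl2 exceeded Bcl2l11 in 2 of 4 and in 1 of 4. These orders follow from the values above and were not tested. All 10 places were the same when CPM was divided by the length of the GENCODE M21 exons, an alternative chosen after seeing the data. That measure kept nearly the same proportion to the deposited FPKM in every gene. Bnip3 had 57.2 CPM per kilobase against 51.7 FPKM, and Bid 0.502 against 0.455. The same order was thus fixed in advance and is no separate check.

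Summed markers of 3 cell types (cardiomyocyte, endothelial and neutrophil) did not overlap between the groups, although no single marker was called. The sums were not tested. Those of hepatocyte, atrial, erythroid, macrophage, lymphocyte, fibroblast, adipocyte and skeletal muscle markers overlapped. Of all single tested genes, 8.07% did not overlap. In bulk tissue, fewer cells of a type and less RNA per cell cannot be told apart. Summed cardiomyocyte markers (10 genes, 9 with a log2 fold change above 0, 0 called) were 40030 to 51460 CPM in wildtype and 52910 to 60790 CPM in the labelled libraries. Summed endothelial markers (9 genes, 8 above 0, 0 called) were 747.8 to 832.4 and 905.3 to 1018 CPM. Neutrophil markers (9 summed, 6 tested, 5 below 0, 0 called) were 5.22 to 9.478 and 2.209 to 4.893 CPM. Of these 9 genes, 7 averaged under 1 CPM, so this sum rests on scarce transcripts. All 11 macrophage markers had a log2 fold change below 0 (0 called), but their sums overlapped, at 277.6 to 421.5 and 237.7 to 288.9 CPM. All 4 tested adipocyte markers were below 0 too, while all 18 hepatocyte and all 5 tested skeletal muscle markers were above 0 (0 called). No marker of these lists had 0 counts in all libraries, and the part of these shifts in the Bcl2l1 and Bnip3 values was not tested.

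Erythroid markers concern Bcl2l1 and Bnip3l because red cell precursors carry much of both transcripts. They summed to 776.4 to 1038 CPM in wildtype and 908.7, 2103, 923.1 and 1064 CPM in labelled knockdown replicates 1 to 4. The library with the most, labelled knockdown replicate 2, also had the most Bcl2l1 of its group. With the erythroid sum as a covariate the log2 fold change of Bcl2l1 was −1.61 (edgeR adjusted p = 0.01646), and without that library −1.58. Bnip3l was lowest of its group in the same library, at 45.49 CPM, and had −0.15 with the erythroid covariate. Of the 11 erythroid markers found, 5 averaged under 1 CPM. That covariate was set largely by labelled knockdown replicate 2, and the part of red cells in the values of either gene was not tested.

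The counts for the lists below stand against 0.647% of all tested genes called by edgeR, 3.73% called by DESeq2 and 12.4% at an unadjusted p under 0.05, with 50.11% of all log2 fold changes below 0. For 8.07% of all tested genes the groups did not overlap in CPM. In the lists, in the order given, this held for 0 of 11, 2 of 22, 2 of 30, 2 of 21, 2 of 19, 6 of 20, 4 of 16 and 3 of 22. Among the list genes named below, Bax, Bik, Bbc3 and Sqstm1 overlapped and the rest, picked by p, did not. The other genes of the BCL2 family did not pass. Of the 14 that were found, 11 had counts enough to be tested, 0 were called by edgeR or DESeq2, 0 had an unadjusted p under 0.05, and the median log2 fold change was 0.04. Bax, the second pore-forming effector, had 5.239 ± 0.949 FPKM (SD, n = 4) in wildtype, against 4.964 ± 1.17 FPKM (SD, n = 4) in the labelled libraries (log2 fold change −0.09). The 2 with the smallest p were the BH3-only genes Bik (log2 fold change 0.67, edgeR adjusted p = 0.5374) and Bbc3, which encodes PUMA (0.39, adjusted p = 0.7508).

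The lists of mitophagy and autophagy genes had 0 called members of 22 and 30 tested by edgeR, with 5 and 4 at an unadjusted p under 0.05 and medians of −0.03 and 0.02; DESeq2 called 1 (Pptc7) and 0. Pptc7, a mitochondrial phosphatase that restrains BNIP3 and NIX, had a log2 fold change of 0.39 (edgeR adjusted p = 0.17) with no overlap between the groups. Sqstm1, which encodes the cargo receptor p62, had −0.52 (edgeR adjusted p = 0.2206), and −0.85 within the 5 libraries with over 100 CPM of hepatocyte markers. In the autophagy list, Uvrag and Lamp2, which act in autophagosome maturation and at the lysosomal membrane, had −0.27 and −0.23 (adjusted p = 0.2515 and 0.3139).

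Downstream of the outer membrane, 0 of 21 genes of the apoptosome, caspases and their inhibitors were called by edgeR and 1 by DESeq2 (4 at an unadjusted p under 0.05, median 0.09). Birc2, encoding the inhibitor cIAP1, had a log2 fold change of −0.37 (adjusted p = 0.1431), and Aifm1, encoding the mitochondrial flavoprotein AIF, 0.33 (adjusted p = 0.1485; DESeq2 0.0483). Of 19 genes of mitochondrial fission, fusion and outer membrane channels, 0 were called by edgeR and 1 by DESeq2 (2 at an unadjusted p under 0.05), and 16 were above 0 (median 0.10). Ppif, which encodes cyclophilin D of the permeability transition pore, had 0.48 (adjusted p = 0.1212; DESeq2 0.008834), and the fusion GTPase gene Mfn1 0.32 (adjusted p = 0.2489).

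The targets of HIF-1, to which Bnip3 belongs, did not share a direction. Of 20 tested, 0 were called by edgeR and 3 by DESeq2; 4 were lower and 3 higher at an unadjusted p under 0.05, and the median was −0.02. The glycolytic genes Hk2 and Pfkfb3 had log2 fold changes of 0.39 (edgeR adjusted p = 0.1139, DESeq2 0.005611) and −1.54 (0.1455, DESeq2 8.912e-05), both without overlap between the groups. Pfkfb3 had −0.48 within the 5 libraries with over 100 CPM of hepatocyte markers and −0.55 with the hepatocyte covariate, and passed without wildtype replicate 1 (−1.77, edgeR adjusted p = 0.024). Of 16 FoxO targets, 1 rose by edgeR, and DESeq2 called 3 in all (6 at an unadjusted p under 0.05). The 1 was Gadd45a, a growth arrest and DNA damage gene, at 2.803 FPKM in wildtype and 6.39 FPKM in the labelled libraries; its log2 fold change was 1.17 (SE 0.22, adjusted p by edgeR 0.04712), and the call was lost without any 1 of the 8 libraries (0.05004 to 0.1149). Of 22 kinases, ligases and partners acting on BCL2 proteins, 0 were called by edgeR or DESeq2 (5 at an unadjusted p under 0.05); Fbxw7, the ubiquitin ligase subunit that targets MCL1, had 0.31 and Tmbim6, encoding BAX inhibitor-1, −0.26 (adjusted p = 0.206 and 0.2376).

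**Figure D5:**
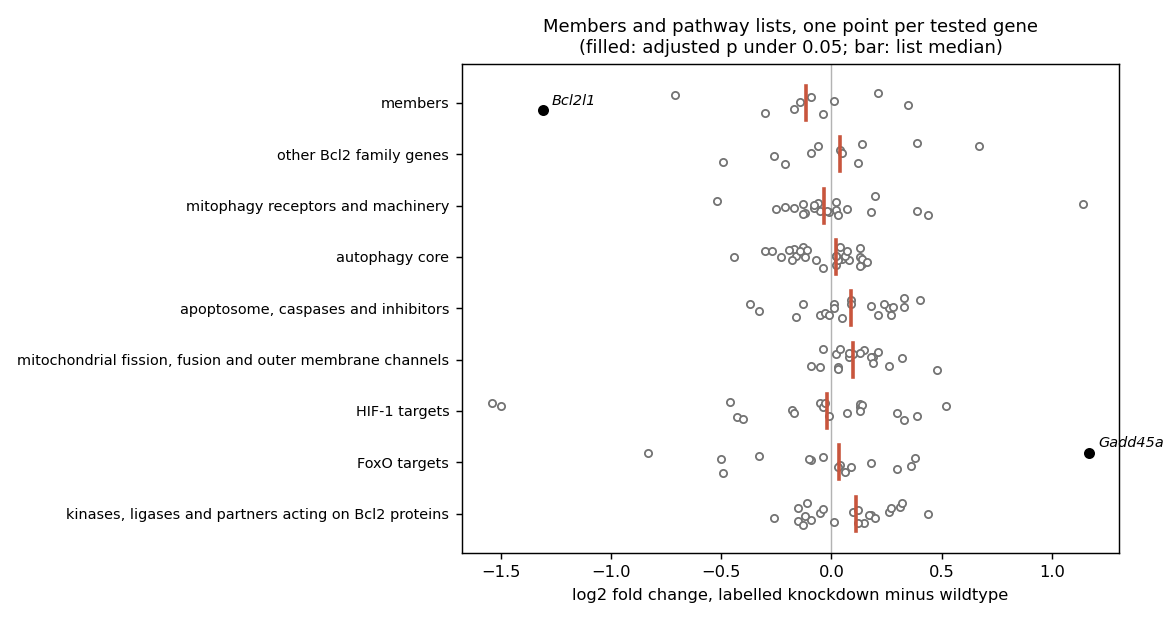
Log2 fold change (x axis, labelled knockdown minus wildtype) of every tested gene in the 10-gene group and in the 8 pathway lists (rows), with the list median as a bar; filled points have an edgeR adjusted p under 0.05. Bcl2l1 at −1.31 and Gadd45a at 1.17 are the filled points, and the list medians lie between −0.12 and 0.11.

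Among 12370 named genes averaging 1 CPM or more, the 5 whose log2 CPM followed Bcl2l1 most closely over the 8 libraries were Cdkn1a, Pkp4, Nuak1, Cdc42ep4 and Ifi205, with Pearson's r of 0.98, 0.978, 0.978, 0.978 and 0.975 and Spearman's rho of 0.93, 0.93, 0.90, 0.90 and 0.76. Part of this likeness is the shared difference between the groups. For deviations from the group means r was 0.84 to 0.94. The 5 genes were picked by their r over these same libraries, so high values within the groups follow in part from that choice. Likeness beyond the group difference was not tested. Cdkn1a, which encodes the cell cycle inhibitor p21, fell by 1.16 on the log2 scale (edgeR adjusted p = 0.00962). Ifi205, an interferon-inducible gene, fell by 1.40 (edgeR adjusted p = 0.01324). Cdkn1a was called in 19 and Ifi205 in 18 of the 21 alternative settings, and both were called whichever 1 of the 8 libraries was left out. With the hepatocyte covariate their log2 fold changes were −1.1 and −1.44 and did not pass (edgeR adjusted p = 0.2518 and 0.2348). Within the 5 libraries with over 100 CPM of hepatocyte markers, of which 1 is wildtype, they were −1.07 and −1.42. Pkp4, Nuak1 and Cdc42ep4 had log2 fold changes of −0.49, −1.06 and −0.57 and did not pass (edgeR adjusted p = 0.1124, 0.06141 and 0.1254).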

How the data were processed

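RNA of 8 operated hearts (4 wildtype, 4 labelled Mertk knockdown) was sequenced as paired ends from oligo(dT)-selected, dUTP-marked libraries, per the labels' protocols. The authors deposited 1 table holding, for each gene and library, a read count and an FPKM (per the file headers). The build mm10 and the tools StringTie 2.1.6, HISAT2 2.2.1, edgeR, DESeq2 and cutadapt 1.9 are named in the submitters' processing notes; their roles and any strand setting are not given in the sources used here. The deposited FPKM served for levels compared between genes, and the deposited counts for tests: edgeR 4.0.16 (R 4.3.3; quasi-likelihood F test, robust, TMM, filterByExpr, no covariate), adjusted over all 17787 tested genes, called under 0.05. SE is the log2 fold change divided by the square root of F. The pseudocount for permutation tests on log2 CPM was 0.1. Alternatives used DESeq2 1.42.0 and limma 3.58.1. The script was tested on simulated data. The genes and lists were chosen with earlier results of these data known. Named genes were the 10 genes, up to 4 called genes of each pathway list (or the 2 with the smallest p), and the 5 most like the gene with the smallest p; Bax, Gm20521, Ggnbp1, Gpr137, Bcl2l13, Gm18258 and the neighbours were named after their values were seen. Libraries of a group differed by more than counting noise (chi-square over its degrees of freedom, 37.89 to 198.7). With 59287621 counts in the shallowest library, 3 counts are 0.0506 CPM, counting error only; the 10 genes had 51 to 12890 counts per library. Promoter windows are from RefSeq (GRCm38.p6), where 9 of the 10 genes matched.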

Additional observations from a re-analysis of the deposited data

Results flagged for a closer look

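In 6 of 62 groups of 4 libraries, a single library stood apart from the other 3 by more than Dixon's 95% criterion; chance alone gives about 1 in 20 groups. Bcl2 was at 19.98 CPM in wildtype replicate 2 against 10.79 to 11.61 CPM in the other wildtype libraries. That library also had the highest summed fibroblast (1893 CPM) and atrial (2391 CPM) markers of the 8, and their part in its Bcl2 value was not tested. Bcl2l11 was at 17.65 CPM in labelled knockdown replicate 4 against 10.15 to 10.47 CPM; atrial markers summed to 2158 CPM there and to 246.2 to 539.1 CPM in the rest of its group, while wildtype replicate 2, with the most atrial markers of all, had the lowest Bcl2l11 (6.005 CPM). With the atrial covariate the log2 fold change was 0.21 for Bcl2 (0.01 without it) and 0.36 for Bcl2l11 (0.35 without it). These fits compare the groups and do not show why a single library stood apart. The part of atrial tissue in the Bcl2l11 value was not tested. Bnip3l was at 55.78 CPM in wildtype replicate 1 against 50.68 to 50.99 CPM. Bbc3 was at 2.728 CPM in wildtype replicate 1 (others 1.086 to 1.331) and at 3.494 CPM in labelled knockdown replicate 3 (others 1.48 to 1.805). Cdkn1a was at 58.28 CPM in wildtype replicate 2 (others 46.63 to 48.35).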

How the results depend on the processing

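The directions of Bcl2l1, Mcl1, Bnip3 and Bnip3l were the same in all 21 alternatives. The counts of genes called higher and lower over all genes (49 and 66) were 268 and 336 by DESeq2, 27 and 43 with log2(FPKM + 1), 29 and 40 with log2(FPKM + 0.1), 19 and 23 within the 5 libraries with over 100 CPM of hepatocyte markers (1 wildtype against 4, so a call lost there says little), 5 and 7 with the hepatocyte covariate, and 9 and 22 with the erythroid covariate. The hepatocyte covariate nearly follows the groups, so a call lost with it also says little. With 1 library left out the counts ranged from 15 to 165 and from 29 to 100. The highest came without wildtype replicate 1. Of the 10 genes, 1 was called lower, against 2 by DESeq2 and with the atrial covariate (Bnip3 added), 0 without a filter, within the 5 libraries and with the hepatocyte covariate, and 0 to 1 with 1 library left out; none was called higher in any setting. The replicate numbers did not pair the samples (correlation of deviations 0.07, −0.03, −0.03 and 0.20 for numbers 1 to 4); with the replicate block 5 and 19 genes and 0 of the 10 were called (Bcl2l1 −1.38, adjusted p = 0.05275; Ifi205 −1.44, 0.05911). Some fold changes of uncalled genes changed sign, Bid, Bcl2l11 and Bbc3 from −0.30, 0.35 and 0.39. Within the 5 libraries Bcl2l2 had 0.02, Bak1 0.17, Bad 0.21, Bid 0.44, Bcl2l11 −0.08 and Bbc3 −0.39. With the hepatocyte covariate Bcl2l2 had 0.01, Bak1 0.14, Bad 0.19, Bid 0.47 and Bbc3 −0.38. With the atrial covariate Bak1 had 0.01 and Bad 0.04, with the erythroid covariate Bcl2 had −0.02, and with log2(FPKM + 0.1) Bad had 0.01. With 1 library left out Bcl2 ranged from −0.09 to 0.27, Bak1 from −0.27 to 0.03 and Bad from −0.16 to 0.11. Where a value changed, the cause was not tested. The planned comparison with levels per kilobase of a deposited gene length was not run; levels per kilobase of GENCODE M21 exons were used in its place. At this depth Bid was the gene most limited by its count.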

Other observations

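Bcl2l11 and Bcl2l1 lie on the same chromosome as Mertk, 0.536 and 24.0 Mb from it. Of the 1350 tested genes of chromosome 2, 5 (0.37%) were called by edgeR, Bcl2l1 among them, against 0.647% of all tested genes. That share covers the whole chromosome, and the stretch around Mertk and Bcl2l11 was not examined separately. The tested genes next to Bcl2l1 with a mean of at least 1 CPM did not pass: Cox4i2 and Id1 had log2 fold changes of 0.38 and −0.28 (edgeR adjusted p = 0.4469 and 0.4923), and Tpx2 and Foxs1, on the other side, −0.11 and 0.90 (0.9439 and 0.3479). Next to Bnip3, Ppp2r2d had −0.23 and Mapk1ip1 −0.40 (edgeR adjusted p = 0.3147 and 0.3656), and Dpysl4 and Stk32c, on the other side, 0.01 and 0.16 (0.9935 and 0.9098). These neighbours were looked up after the values of Bcl2l1 and Bnip3 were seen.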
